A study of Mus musculus with 24 samples.

Results

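The 33 genes described here encode the transporters, enzymes and regulators of glycolysis, together with the hypoxia-inducible factors (HIFs), 2 of the prolyl hydroxylases that act on them and 6 genes known to respond to low oxygen. They were picked by gene symbol from the 54429 gene rows of a mouse RNA-seq series. No measured value entered the rule, but the list was chosen with earlier results of these data known. The series concerns the angiogenic factors that macrophages make in inflammation-driven colon cancer, and its 24 libraries come from cultured macrophages, not from tumours. Marrow cells of C57BL/6N mice, either wild type or knockout for MK2 (MAPKAP kinase 2, a kinase downstream of p38, encoded by Mapkapk2), were grown into macrophages with M-CSF at 10 ng/ml. All 4 groups share this M-CSF culture and were replated on day 7. Wild-type M0 and knockout M0 macrophages were then left unstimulated. Wild-type M2 and knockout M2 macrophages received IL-4 (10 ng/ml) over 24 h. Each group has 6 libraries. The labels name neither the part of Mapkapk2 that was deleted nor the age of the mice, and they do not say whether replicates came from separate animals. The p-values below therefore measure the spread between these libraries, which may be technical.

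Glycolysis splits glucose into pyruvate, which cells either reduce to lactate or send to the mitochondria. HIF-1alpha and HIF-2alpha (genes Hif1a and Epas1) are transcription factor subunits that prolyl hydroxylases mark for destruction while oxygen is present. When oxygen falls, HIF-1alpha raises the transcription of most glycolytic genes, so the same genes serve as a readout of both glycolysis and the HIF-1alpha response. In macrophages a switch to glycolysis is best known from inflammatory activation, and IL-4, which signals through STAT6, is better known for raising oxidative metabolism. All values here are RNA levels: protein, enzyme activity, oxygen and lactate were not measured in the files used here.

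Library totals ran from 7893809 to 13492507 counts. Mapkapk2 (chromosome 1, 131053700 to 131097826 on mm10, minus strand), the targeted gene, measured 100.3 to 138 CPM (counts scaled to a common library total and corrected for composition) in wild-type M0, 113 to 139 in wild-type M2, 54.7 to 63.4 in knockout M0 and 47.8 to 60.7 in knockout M2, so every knockout library lay below every wild-type library and none was near 0. All 10 macrophage markers listed were above 1 CPM in every library, and all 6 markers of alternative activation rose with IL-4 in both genotypes. The summed CPM of 15 stromal and fibroblast markers was 172 ± 28.5 (SD, n = 6) in wild-type M0, 144 ± 20.1 in wild-type M2, 15.4 ± 7.09 in knockout M0 and 15.1 ± 5.02 in knockout M2. Library numbers in the labels fall into a first run of 9 libraries, all of replicates 1 to 3, a second run of 12 libraries, replicates 4 to 6 of every group, and 3 libraries outside both (replicate 3 of wild-type M0 and replicate 2 of each M2 group), called numbered apart here. Values within replicates 1 to 3 and within replicates 4 to 6 are therefore given beside the pooled ones.

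The members were first described by the sequence at their transcription starts. Glycolytic and hypoxia-responsive genes were chosen, and HIFs are known to act on many of them. A raised share of HIF motifs was therefore largely built into the choice and is not an independent result. RefSeq (GRCm38.p6) start-site windows of 300 bases, 250 before and 50 after the start, were matched for 30 of the 33 members in 42 entries, with Ero1l found under its newer symbol Ero1a. The core of the HIF binding motif, ACGTG or GCGTG on either strand, was found in 83.3% of these 42 windows and in 43.8% of all 32851 windows. ACGTG alone was in 59.5% of member windows against 19.6% of all, GCGTG alone in 57.1% against 32.4%, the E-box CACGTG, which overlaps ACGTG and counts as a match on each strand, in 14.3% against 7.15%, and the STAT-type palindrome, TTC and GAA with 4 bases between, in 9.52% against 6.95%. Member windows were also richer in G and C, with a median of 64.8% against 52.7%, which bears on how often such letters occur. Some windows of Pfkm, of Aldoa and of Eno1 overlap and share cores, and each was counted. Counted by gene, 28 of the 30 matched members held a HIF core in at least 1 window. These are matches of letters, not measured binding.

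Windows are printed for 5 members, with values given further on. Their RNA was higher in every IL-4 library than in every unstimulated library of the same genotype, in both genotypes. How many of all genes tested separate in this way was not counted, so this is a rule for printing and not a result. Letters in capitals mark HIF cores on either strand. Slc2a1 (chr4:119108495-119108794, plus strand) holds 2 cores, Hk2 (chr6:82774405-82774704, minus strand) 2, Hk3 (chr13:55021336-55021635, minus strand) 1, Pgam1 (chr19:41911621-41911920, plus strand) 3, and the first of 2 Ldha entries (chr7:46845554-46845853, plus strand) 7, among them a pair of E-boxes.
Slc2a1: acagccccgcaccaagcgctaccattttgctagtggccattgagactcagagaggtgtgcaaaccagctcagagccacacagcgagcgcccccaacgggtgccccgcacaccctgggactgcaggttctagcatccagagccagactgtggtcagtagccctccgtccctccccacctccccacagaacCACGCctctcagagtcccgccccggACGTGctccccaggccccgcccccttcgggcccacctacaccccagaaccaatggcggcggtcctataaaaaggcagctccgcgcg
Hk2: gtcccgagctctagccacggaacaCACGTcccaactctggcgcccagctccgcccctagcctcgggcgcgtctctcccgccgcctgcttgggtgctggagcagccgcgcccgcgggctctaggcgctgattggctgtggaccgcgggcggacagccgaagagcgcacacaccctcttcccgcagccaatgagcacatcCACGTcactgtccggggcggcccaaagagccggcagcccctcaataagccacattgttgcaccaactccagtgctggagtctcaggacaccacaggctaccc
Hk3: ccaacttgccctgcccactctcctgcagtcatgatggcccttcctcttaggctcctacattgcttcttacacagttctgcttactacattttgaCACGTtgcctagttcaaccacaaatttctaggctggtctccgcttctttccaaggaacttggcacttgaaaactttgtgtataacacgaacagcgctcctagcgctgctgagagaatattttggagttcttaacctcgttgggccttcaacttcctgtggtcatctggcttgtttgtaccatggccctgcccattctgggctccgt
Pgam1: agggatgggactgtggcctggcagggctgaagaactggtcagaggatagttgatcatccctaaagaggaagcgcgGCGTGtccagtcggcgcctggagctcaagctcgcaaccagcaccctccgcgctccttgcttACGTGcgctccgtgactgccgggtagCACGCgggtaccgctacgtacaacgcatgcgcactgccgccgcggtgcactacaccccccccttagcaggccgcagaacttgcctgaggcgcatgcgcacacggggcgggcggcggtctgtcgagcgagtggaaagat
Ldha: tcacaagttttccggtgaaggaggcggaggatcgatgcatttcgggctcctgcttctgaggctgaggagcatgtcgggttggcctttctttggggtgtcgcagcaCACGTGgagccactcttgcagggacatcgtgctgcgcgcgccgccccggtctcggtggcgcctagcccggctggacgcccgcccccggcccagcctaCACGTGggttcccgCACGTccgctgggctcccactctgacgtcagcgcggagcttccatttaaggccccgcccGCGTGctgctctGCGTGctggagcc
The Hk3 window, of the myeloid hexokinase, has the fewest cores and 49% G and C, and the Ldha window, of the lactate dehydrogenase A chain, has the most of the 5. Hk3 and this Ldha window each also hold 1 such palindrome.

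Levels of different genes were compared on the authors' length-scaled values (GETMM, gene length corrected TMM). In unstimulated wild-type macrophages, the 10 genes with the highest mean GETMM level were Gapdh (2045), Pkm (826), Ldha (495), Bnip3l (418), Pgam1 (383), Pgk1 (334), Tpi1 (330.4), Gpi1 (280), Eno1 (251) and Hk3 (229). Except for Bnip3l, a mitochondrial receptor for mitophagy, these encode single steps of the path from glucose to lactate. The regulatory and hypoxia-responsive genes lay lower: P4ha1, a collagen prolyl hydroxylase subunit, was at 52, Slc2a1 at 22.7, Slc16a3 at 8.53 and Egln3 at 0.993. Aldoa, the muscle-type aldolase, had 25 counts over all 24 libraries. The annotation (GENCODE M21) holds a pair of genes with that symbol side by side on chromosome 7 and the table holds 1 row, so the row was not tested and no aldolase level is read from it. The plot of GETMM levels shows the order for the 32 members that were tested.

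**Figure D1:**
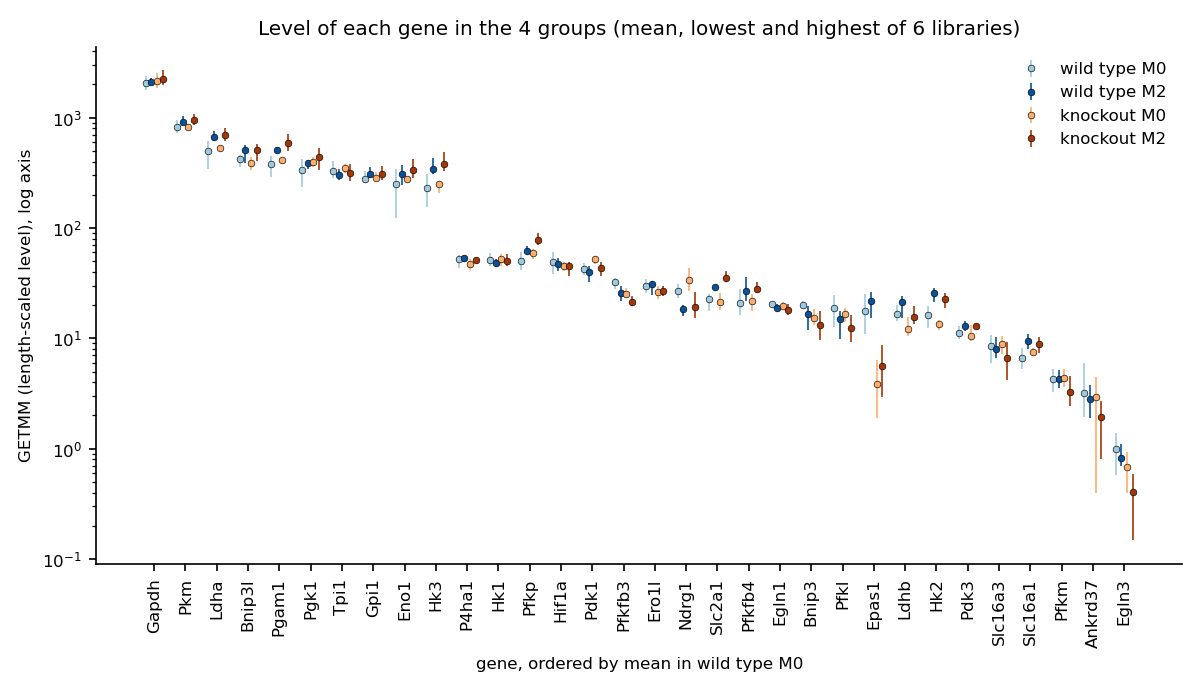
GETMM level (log axis) of the 32 tested members, ordered by their mean in wild-type M0 macrophages. Points are means of 6 libraries per group and lines run from the lowest to the highest library. Gapdh is the highest and Egln3 the lowest, and Epas1 is the gene whose knockout ranges sit wholly under its wild-type ranges in both states.

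IL-4 raised some of the members that act between glucose uptake and lactate. Others on that path, among them Hk1, Gpi1, Tpi1, Gapdh, Pgk1 and Eno1, passed in neither genotype in the fit of all libraries. In wild-type macrophages 8 of the 32 tested members rose and 2 fell (edgeR's quasi-likelihood test, Benjamini-Hochberg adjusted over all 12797 genes tested, threshold 0.05), which is 31.2% of members where 16.4% of all genes tested passed (8.49% higher, 7.95% lower). In knockout macrophages 12 rose and 4 fell, 50% of members where 23.6% of all genes passed (12.2% higher, 11.4% lower). The median log2 fold change of the members was 0.10 in wild type and 0.13 in knockout, against -0.02 and 0.00 over all genes tested. Slc2a1, Hk2, Hk3, Pfkp, Pgam1, Ldha, Ldhb and Slc16a1 rose in both genotypes and Ndrg1 fell in both. Pfkfb3 fell in wild type, and Bnip3l, Pdk3, Pfkfb4 and Pkm rose and Pdk1, Pfkl and Pfkm fell in knockout. A difference of these responses between genotypes was not shown. The other 15 tested members passed in neither genotype. Markers of cycling cells fell with IL-4, 8 of 8 in both genotypes, with summed CPM going from 512 to 283 in wild type and from 696 to 296 in knockout, and 5 of 6 osteoclast markers rose. The part of either list in the members' changes was not tested, and fewer cells of a type and less RNA per cell cannot be told apart in bulk libraries.

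**Figure D2:**
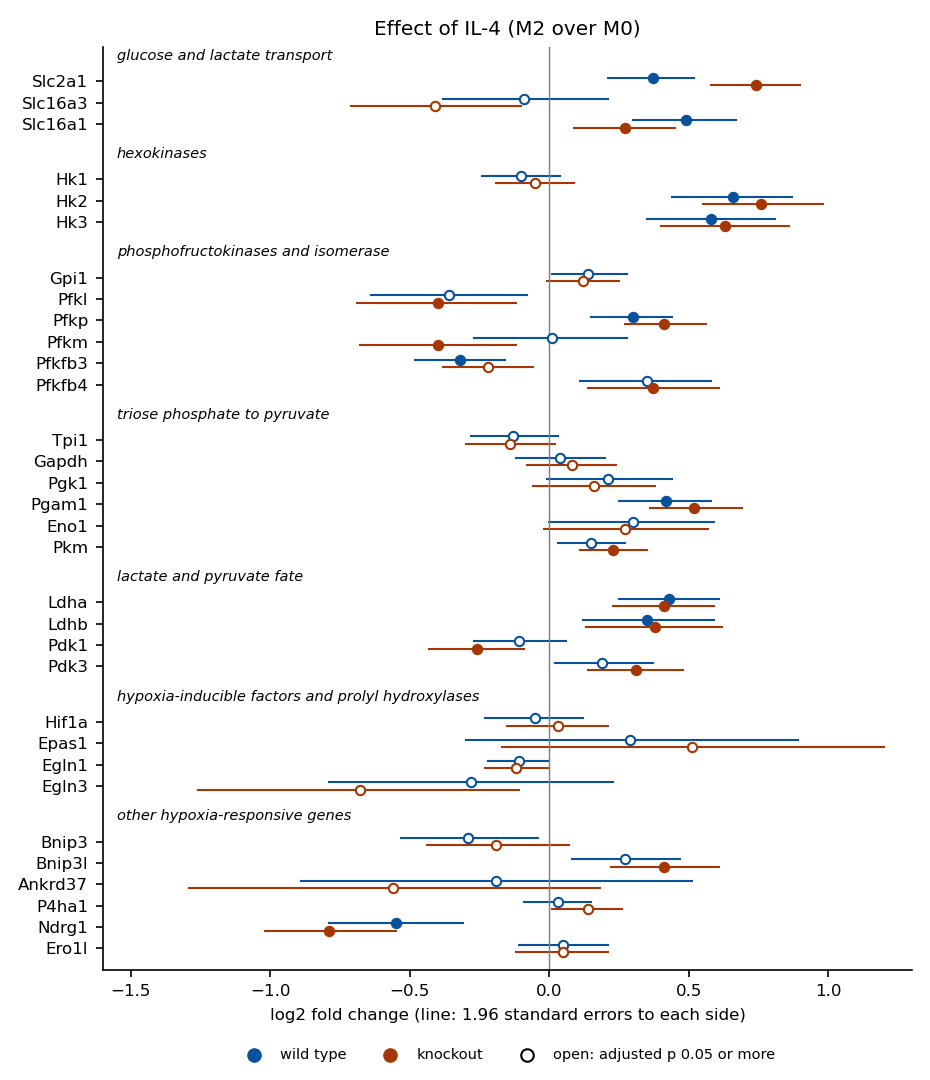
Log2 fold change with IL-4 (M2 minus M0) of the 32 tested members, grouped by role, in wild-type (blue) and knockout (brown) macrophages. Lines are 95% intervals from the SE, filled points passed the adjusted threshold of 0.05, and the points of both genotypes lie on the same side of 0 for each of the 9 members that passed in both.

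Slc2a1 (chromosome 4, 119108711 to 119137983 on mm10, plus strand) encodes GLUT1, the main basal glucose transporter. Its lowest, median and highest CPM were 20, 26.4 and 28 in wild-type M0 and 32.4, 33.1 and 33.5 in wild-type M2. The knockout libraries gave 20.1, 24 and 28.5 in M0 and 36.4, 39.9 and 45.5 in M2. Every M2 library was above every M0 library of its genotype. The rise was 1.29-fold in wild type (0.37 on the log2 scale, SE 0.08, adjusted p = 0.00184) and 1.67-fold in knockout (0.74 on the log2 scale, SE 0.08, adjusted p = 8.94e-08). Split by replicate, the wild-type log2 fold change was 0.46 (adjusted p = 0.0586) in replicates 1 to 3 alone and 0.31 (adjusted p = 0.0117) in replicates 4 to 6 alone. The knockout ones were 0.89 and 0.58, each past the threshold. The knockout response was the larger by 0.37 on the log2 scale (SE 0.11, 95% interval 0.15 to 0.59). That difference did not pass (adjusted p = 1).

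The monocarboxylate transporters, which carry lactate and pyruvate across the plasma membrane, were both measured. Slc16a1 (MCT1) had lowest, median and highest CPM of 13.6, 16.6 and 20.7 in wild-type M0 and 20.1, 23.4 and 27.3 in wild-type M2, whose edges overlapped. Knockout M0 and M2 measured 17.1, 18.7 and 20.6, and 18.5, 22.4 and 25.7, with overlap. It rose in wild type (0.49 on the log2 scale, SE 0.09, adjusted p = 0.000545) and in knockout (0.27 on the log2 scale, SE 0.09, adjusted p = 0.0358). The wild-type change was 0.69 (adjusted p = 0.0147) in replicates 1 to 3 alone and 0.31 (adjusted p = 0.0786) in replicates 4 to 6 alone. The knockout change was 0.26 (adjusted p = 0.326) in replicates 1 to 3 alone and 0.27 (adjusted p = 0.092) in replicates 4 to 6 alone, and its call was lost without any one of knockout M0 replicates 1, 2, 3, 5 and 6, or knockout M2 replicates 1, 4 and 5 (adjusted p from 0.0535 to 0.0983). Slc16a3 (MCT4), the export form known to respond to hypoxia, did not pass in either genotype, with log2 fold changes of -0.09 and -0.41 (adjusted p = 0.749 and 0.057). In knockout it passed when knockout M0 replicate 4, or knockout M2 replicate 2 (adjusted p from 0.0114 to 0.0396) was left out. The tool DESeq2, limma on log2 GETMM, the library run as a term, and leaving out the 3 libraries numbered apart also called it lower there. So did replicates 4 to 6 alone and blocks by culture or replicate number, described further on. Replicates 1 to 3 alone, a fit of the knockout groups only and other count filters did not.

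Hexokinases trap glucose in the cell as glucose 6-phosphate, and 2 of the 3 measured rose in both genotypes. Hk2 (chromosome 6, 82725025 to 82774454 on mm10, minus strand), the inducible hexokinase of mitochondrial membranes, had lowest, median and highest CPM of 34.4, 45.5 and 53.4 in wild-type M0 and 57.4, 73.7 and 77.8 in wild-type M2. In knockout the M0 values were 31.8, 37.9 and 39.3 and the M2 values 50.6, 62.1 and 71. No M0 library reached its genotype's M2 range. The change was 1.58-fold in wild type (0.66 on the log2 scale, SE 0.11, adjusted p = 8.28e-05) and 1.7-fold in knockout (0.76 on the log2 scale, SE 0.11, adjusted p = 6.69e-06), the largest rise among the members in both genotypes. Replicates 1 to 3 and 4 to 6 alone gave 0.77 and 0.59 in wild type and 0.74 and 0.78 in knockout, all past the threshold.

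Hk3 (chromosome 13, 55005985 to 55021385 on mm10, minus strand), the hexokinase best known from myeloid cells, went from 208, 313 and 402 CPM (lowest, median, highest) to 406, 441 and 574 in wild type and from 274, 338 and 353 to 447, 487 and 652 in knockout. The M0 and M2 ranges did not overlap in either genotype. The log2 fold change was 0.58 in wild type (SE 0.12, adjusted p = 0.000875) and 0.63 in knockout (SE 0.12, adjusted p = 0.000212). In wild type it was 0.67 (adjusted p = 0.0888) in replicates 1 to 3 alone and 0.50 (adjusted p = 7.79e-05) in replicates 4 to 6 alone. In knockout it passed in both sets of replicates, at 0.82 and 0.42. Hk1, the housekeeping form, did not pass in either genotype (log2 fold change -0.10 and -0.05).

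Of the summed GETMM level of the 3 hexokinases, Hk3 made up 76.8 ± 3.88% (SD, n = 6) in wild-type M0, 82.2 ± 1.66% in wild-type M2, 79.1 ± 2.46% in knockout M0 and 84 ± 1.2% in knockout M2. Hk1 made up 17.6 ± 3.34%, 11.5 ± 0.948%, 16.7 ± 2.51% and 11 ± 0.657% in the same order, and Hk2, despite the largest fold change, no more than 6.26% in any group mean. These shares are descriptions of RNA per gene length.

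Phosphofructokinase, the committed step, has 3 subunit genes, and their RNA moved in different directions. Pfkp (chromosome 13, 6579768 to 6648777 on mm10, minus strand), the platelet-type subunit, had lowest, median and highest CPM of 76.9, 93.5 and 108 in wild-type M0 and 108, 112 and 124 in wild-type M2, whose ranges overlapped at their edges. For knockout these were 97.2, 106 and 117 in M0 and 130.4, 142 and 165 in M2, without overlap. It rose in wild type (0.30 on the log2 scale, SE 0.07, adjusted p = 0.00562) and in knockout (0.41 on the log2 scale, SE 0.07, adjusted p = 0.000118). Replicates 1 to 3 alone gave 0.37 in wild type (adjusted p = 0.106) and replicates 4 to 6 alone 0.24 (adjusted p = 0.00636). In knockout they gave 0.40 (adjusted p = 0.0544) in replicates 1 to 3 alone and 0.41 (adjusted p = 2.81e-05) in replicates 4 to 6 alone.

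Pfkl, the liver-type subunit, went from 19.4, 23.2 and 25.8 CPM in knockout M0 to 13, 16.8 and 23 in knockout M2 and from 17.8, 27.1 and 33.9 to 13.8, 22 and 24.4 in wild type, with overlap in both. It fell in knockout (-0.40 on the log2 scale, SE 0.14, adjusted p = 0.0431) and did not pass in wild type (log2 fold change -0.36, adjusted p = 0.0897). The knockout call was lost without any one of knockout M0 replicates 1, 2, 3, 4 and 6, or knockout M2 replicates 1, 4, 5 and 6 (adjusted p from 0.0507 to 0.113). Pfkm, the muscle-type subunit, measured 5.78, 7.04 and 8.37 CPM in knockout M0 and 3.91, 4.86 and 7.13 in knockout M2 (-0.40 on the log2 scale, SE 0.14, adjusted p = 0.0415) against a log2 fold change of 0.01 in wild type (adjusted p = 0.979). Its call was lost without any one of knockout M0 replicates 1, 2, 3 and 5, or knockout M2 replicates 1, 4, 5 and 6 (adjusted p from 0.061 to 0.114). In wild type the Pfkl change passed without wild-type M0 replicate 1 (adjusted p = 0.0214). In replicates 1 to 3 and 4 to 6 alone the knockout changes were -0.26 and -0.61 for Pfkl and -0.33 and -0.53 for Pfkm, of which only those of replicates 4 to 6 passed. As a share of the 3 subunits' GETMM level, Pfkp was 68.6 ± 1.84% in wild-type M0 (66.3 to 71.4% over libraries), 76.6 ± 2.33% in wild-type M2 (74.7 to 80.7%), 73.7 ± 1.57% in knockout M0 (72.4 to 75.7%) and 83.3 ± 2.06% in knockout M2 (80.7 to 86.5%). No library of an M2 group had as low a Pfkp share as any M0 library of its genotype.

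The bifunctional enzymes that set fructose 2,6-bisphosphate, an activator of phosphofructokinase, were called in opposite directions, each in 1 genotype in the pooled fit. Other settings also called Pfkfb3 lower in knockout and Pfkfb4 higher in wild type. Both were called by the tool DESeq2, with the library run as a term, in replicates 4 to 6 alone, and with the block by culture number described further on. Limma on log2 GETMM, a fit of the knockout groups only and a block by replicate number also called Pfkfb3 in knockout. Another normalization (RLE) called Pfkfb4 in wild type. Replicates 1 to 3 alone called neither of these. Pfkfb3 (chromosome 2, 11471433 to 11554077 on mm10, minus strand), the form with the most kinase over phosphatase activity, had lowest, median and highest CPM of 68.8, 79.5 and 84.8 in wild-type M0 and 52.9, 63.9 and 73.1 in wild-type M2, which overlapped. Knockout macrophages had 55, 59.3 and 70.7 before IL-4 and 47.4, 51 and 59.4 after. It fell in wild type (-0.32 on the log2 scale, SE 0.08, adjusted p = 0.00626), with changes of -0.41 and -0.23 in replicates 1 to 3 and 4 to 6 alone, both past the threshold. It did not pass in knockout (log2 fold change -0.22, adjusted p = 0.0539), where it passed without any one of knockout M0 replicates 1, 2 and 3, or knockout M2 replicate 4 (adjusted p from 0.0275 to 0.0497). Without the 3 libraries numbered apart and wild-type M0 replicate 1, which has the highest mitochondrial share of counts (7.52%), the wild-type fall did not pass (log2 fold change -0.26, adjusted p = 0.0554). Pfkfb4 went the other way, from 22.9, 28.7 and 31.9 to 32.8, 35.5 and 42.5 CPM in knockout without overlap (0.37 on the log2 scale, SE 0.12, adjusted p = 0.0247). It went from 21.7, 26.4 and 37.2 to 28.4, 33.2 and 47 in wild type, where it did not pass (log2 fold change 0.35, adjusted p = 0.0504). The knockout change of Pfkfb4 was 0.44 (adjusted p = 0.168) in replicates 1 to 3 alone and 0.29 (adjusted p = 0.0307) in replicates 4 to 6 alone. Its call was lost without any one of knockout M0 replicate 2, or knockout M2 replicates 2 and 4 (adjusted p from 0.0505 to 0.0683). The wild-type change passed without any one of wild-type M0 replicates 2 and 3, or wild-type M2 replicate 5 (adjusted p from 0.00813 to 0.0347). Gpi1, glucose 6-phosphate isomerase, did not pass in either genotype (log2 fold change 0.14 and 0.12).

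Among the enzymes from triose phosphate to pyruvate, 1 of the 6 tested rose in both genotypes. Pgam1 (chromosome 19, 41911923 to 41918660 on mm10, plus strand), phosphoglycerate mutase, had lowest, median and highest CPM of 308, 413 and 458 in wild-type M0 and 494, 544 and 564 in wild-type M2. The same values in knockout were 414, 432 and 436 and 528, 603 and 735. All M2 libraries were above all M0 libraries of the same genotype. The change was 1.34-fold in wild type (0.42 on the log2 scale, SE 0.08, adjusted p = 0.000772) and 1.44-fold in knockout (0.52 on the log2 scale, SE 0.08, adjusted p = 2.98e-05). It passed in both sets of replicates in both genotypes, at 0.50 and 0.36 in wild type and 0.67 and 0.36 in knockout. Pkm, pyruvate kinase, rose in knockout (0.23 on the log2 scale, SE 0.06, adjusted p = 0.00631) from a mean of 1019 ± 47.3 CPM to 1194 ± 102 (SD, n = 6). In wild type it did not pass in the pooled fit (log2 fold change 0.15, adjusted p = 0.0939). It passed there without wild-type M0 replicate 3 (adjusted p = 0.0308), by DESeq2, with the library run as a term, and without the 3 libraries numbered apart. In replicates 1 to 3 alone the knockout change was 0.27 (adjusted p = 0.11) and in replicates 4 to 6 0.17 (adjusted p = 0.00732). The files give genes, not isoforms, so the PKM1 and PKM2 forms were not separated.

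Gapdh, glyceraldehyde 3-phosphate dehydrogenase and a common reference gene, was at 903, 1024 and 1166 CPM in wild-type M0, 994, 1049.7 and 1119 in wild-type M2, 934, 1018 and 1248 in knockout M0 and 996, 1064 and 1331 in knockout M2 (lowest, median, highest). Its ranges overlapped in all 4 groups, and its log2 fold change with IL-4 was 0.04 in wild type (95% interval -0.12 to 0.20, adjusted p = 0.787) and 0.08 in knockout (-0.08 to 0.24, adjusted p = 0.578). Tpi1, Pgk1 and Eno1 did not pass, with log2 fold changes of -0.13, 0.21 and 0.30 in wild type and -0.14, 0.16 and 0.27 in knockout. Several of these genes share sequence with near-identical copies, so their counts are less certain: of the 40-base stretches of each transcript set, 54.3% of those of Pgk1, 36.7% of those of Pgam1, 26.6% of those of Eno1 and 25.6% of those of Gapdh also occur in the closest copy. Adding the counts of every gene that shares at least 10% of these stretches left the calls of these 4 genes with IL-4 as they were.

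The last step of glycolysis followed the same direction as Pgam1. Ldha (chromosome 7, 46841475 to 46855627 on mm10, plus strand), whose product favours reduction of pyruvate to lactate, had lowest, median and highest CPM of 277, 418 and 485 in wild-type M0 and 491, 535 and 609 in wild-type M2. Among knockout libraries they were 383, 423 and 436 in M0 and 497, 549 and 654 in M2. The M2 ranges were wholly above the M0 ranges. It rose 1.35-fold in wild type (0.43 on the log2 scale, SE 0.09, adjusted p = 0.00162) and 1.33-fold in knockout (0.41 on the log2 scale, SE 0.09, adjusted p = 0.00133). The wild-type change was 0.51 (adjusted p = 0.0993) in replicates 1 to 3 alone and 0.36 (adjusted p = 0.00407) in replicates 4 to 6 alone. The knockout change was 0.52 (adjusted p = 0.0676) in replicates 1 to 3 alone and 0.29 (adjusted p = 0.00999) in replicates 4 to 6 alone. Ldha made up 96.6% to 97.8% of the summed Ldha and Ldhb GETMM level in the group means.

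Ldhb, the B chain of the same enzyme, had lowest, median and highest CPM of 6.95, 7.99 and 9.5 in wild-type M0, 7.33, 10.7 and 11.6 in wild-type M2, 4.9, 5.66 and 7.22 in knockout M0 and 6.35, 7.15 and 9.5 in knockout M2. The ranges overlapped with IL-4 in both genotypes. It rose in wild type (0.35 on the log2 scale, SE 0.12, adjusted p = 0.0465) and in knockout (0.38 on the log2 scale, SE 0.13, adjusted p = 0.0321). In wild type the change was 0.65 (adjusted p = 0.00648) in replicates 1 to 3 alone and 0.06 (adjusted p = 0.846) in replicates 4 to 6 alone. The wild-type call was lost without any one of wild-type M0 replicates 1, 2, 3, 4 and 6, or wild-type M2 replicates 1, 2, 3 and 6 (adjusted p from 0.0642 to 0.11). In knockout it was 0.36 (adjusted p = 0.109) in replicates 1 to 3 alone and 0.39 (adjusted p = 0.104) in replicates 4 to 6 alone, and the call was lost without any of knockout M0 replicates 1, 2 and 3, or knockout M2 replicates 4, 5 and 6 (adjusted p from 0.0516 to 0.101). The gene model Gm5514 shares 27% of its 40-base stretches and had 1 count.

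The pyruvate dehydrogenase kinases, which hold pyruvate back from the mitochondria, moved in opposite directions in knockout: Pdk1 fell (-0.26 on the log2 scale, SE 0.09, adjusted p = 0.0263) and Pdk3 rose (0.31 on the log2 scale, SE 0.09, adjusted p = 0.0106). The Pdk1 change was -0.27 (adjusted p = 0.209) in replicates 1 to 3 alone and -0.26 (adjusted p = 0.0843) in replicates 4 to 6 alone, and its call was lost without any one of knockout M0 replicate 2, or knockout M2 replicates 1, 5 and 6 (adjusted p from 0.0518 to 0.0767). That of Pdk3 was 0.27 (adjusted p = 0.27) in replicates 1 to 3 alone and 0.34 (adjusted p = 0.0474) in replicates 4 to 6 alone. Neither passed in wild type, with log2 fold changes of -0.11 and 0.19.

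**Figure D3:**
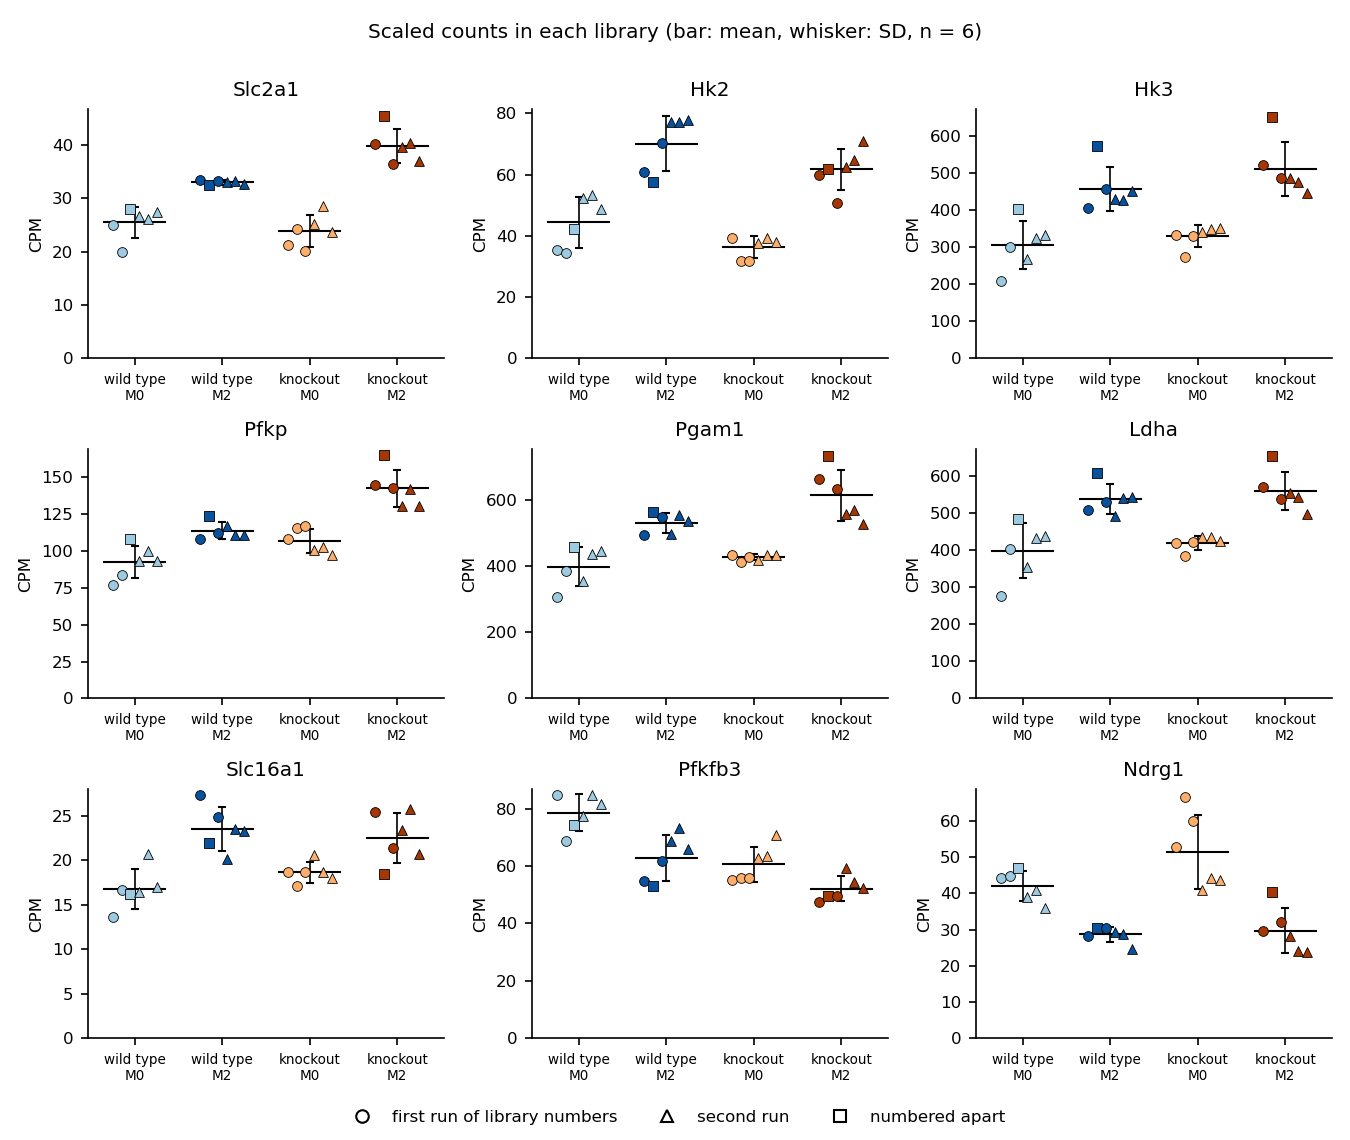
CPM of 9 members in each of the 24 libraries, by group. Marker shapes show the library-number run, bars are group means and whiskers are SDs of 6 libraries. Slc2a1, Hk2, Hk3, Pgam1 and Ldha are higher in all M2 than in all M0 libraries of each genotype, and Ndrg1 is lower. Such separation was not counted over all genes tested.

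In the fit of all libraries without a block, the hypoxia-inducible factors and the prolyl hydroxylases did not pass with IL-4 in either genotype. Hif1a (chromosome 12, 73901375 to 73947530 on mm10, plus strand) had lowest, median and highest CPM of 95.1, 127 and 156 in wild-type M0, 103, 123 and 137 in wild-type M2, 106, 112 and 124 in knockout M0 and 93.2, 119 and 125 in knockout M2, ranges that overlapped throughout. Its log2 fold change was -0.05 in wild type (95% interval -0.23 to 0.12) and 0.03 in knockout (-0.15 to 0.21). HIF-1alpha is controlled chiefly at the level of protein stability, which these libraries do not measure. Egln1 (PHD2), the main oxygen sensor among the hydroxylases, had log2 fold changes of -0.11 and -0.12, and Egln3 (PHD3), itself a HIF target, of -0.28 and -0.68 (adjusted p = 0.513 and 0.0975) at levels near 1 CPM. Epas1 had log2 fold changes with IL-4 of 0.29 (SE 0.30) and 0.51 (SE 0.35) and did not pass in either genotype in this fit. This call depended on the model. With libraries that share a culture number in the labels fitted as a block, described further on, Epas1 was higher with IL-4 past the threshold in both genotypes. By that number, M2 was above M0 in 5 of 6 wild-type and 6 of 6 knockout pairs. Within replicates 4 to 6 alone, the knockout changes of Hif1a (0.17, adjusted p = 0.0398) and Epas1 (0.51, adjusted p = 0.0321) did pass, against -0.13 and 0.58 in replicates 1 to 3.

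Of the 6 hypoxia-responsive members, 1 passed in both genotypes, and it fell. Ndrg1 (chromosome 15, 66929318 to 66969640 on mm10, minus strand), a stress-responsive gene raised by hypoxia in many cell types, had lowest, median and highest CPM of 35.9, 42.6 and 46.9 in wild-type M0 and 24.7, 29.1 and 30.5 in wild-type M2. Knockout M0 libraries had 41, 48.4 and 66.6, and knockout M2 libraries 23.8, 28.9 and 40.4. All M2 libraries were below all M0 libraries of the same genotype. The fall was 1.46-fold in wild type (-0.55 on the log2 scale, SE 0.12, adjusted p = 0.00214) and 1.72-fold in knockout (-0.79 on the log2 scale, SE 0.12, adjusted p = 1.95e-05), the largest change of any member with IL-4 in knockout, and it passed in both sets of replicates in both genotypes. Bnip3l (NIX) rose in knockout (0.41 on the log2 scale, SE 0.10, adjusted p = 0.00263), from 209, 246 and 280 to 258, 335 and 367 CPM with overlap, and by 0.45 (adjusted p = 0.0766) in replicates 1 to 3 alone and 0.37 (adjusted p = 0.000142) in replicates 4 to 6 alone. It did not pass in wild type (log2 fold change 0.27, adjusted p = 0.0603). There it passed once the counts of its copies were added (adjusted p = 0.0435) or without wild-type M2 replicate 2 (adjusted p = 0.0111). It also passed by DESeq2, without a count filter, with the library run as a term, and without the 3 libraries numbered apart. Replicates 4 to 6 alone and blocks by culture or replicate number called it higher too. Limma, a fit of the wild-type groups only and replicates 1 to 3 alone did not call Bnip3l there. Its paralog Bnip3, also a mitophagy receptor, did not pass (-0.29 and -0.19). Ankrd37, P4ha1 and Ero1l, the last an oxidase of the endoplasmic reticulum, did not pass either, with log2 fold changes from -0.56 to 0.14 over both genotypes.

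The difference between the genotypes in the response to IL-4 was tested directly. By edgeR's quasi-likelihood test 0 of the 12797 genes tested, and so 0 of the 32 members, passed after Benjamini-Hochberg adjustment (0% called), with 390 genes and 1 member, Slc2a1, at an unadjusted p under 0.05; DESeq2 called 1 gene and 0 members. Thus the 7 members that passed in knockout and not in wild type, and Pfkfb3, which passed in wild type and not in knockout, were not shown to respond differently. The IL-4 comparisons use separate libraries in the 2 genotypes, whereas each comparison of genotypes shares 1 group with each of them.

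Loss of MK2 changed fewer members. Without IL-4, 0 rose and 3 fell, Epas1, Pfkfb3 and Ldhb, or 9.38% of tested members where 4.52% of all genes tested passed (1.1% higher, 3.42% lower; edgeR's quasi-likelihood test, Benjamini-Hochberg adjusted). With IL-4, 2 rose, Pfkp and Slc2a1, and 3 fell, Epas1, Ldhb and Egln3, or 15.6% where 4.59% of all genes passed (1.51% higher, 3.09% lower). The median log2 fold change of the members was -0.01 without IL-4 and 0.00 with it, against -0.01 and 0.01 over all genes tested.

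**Figure D4:**
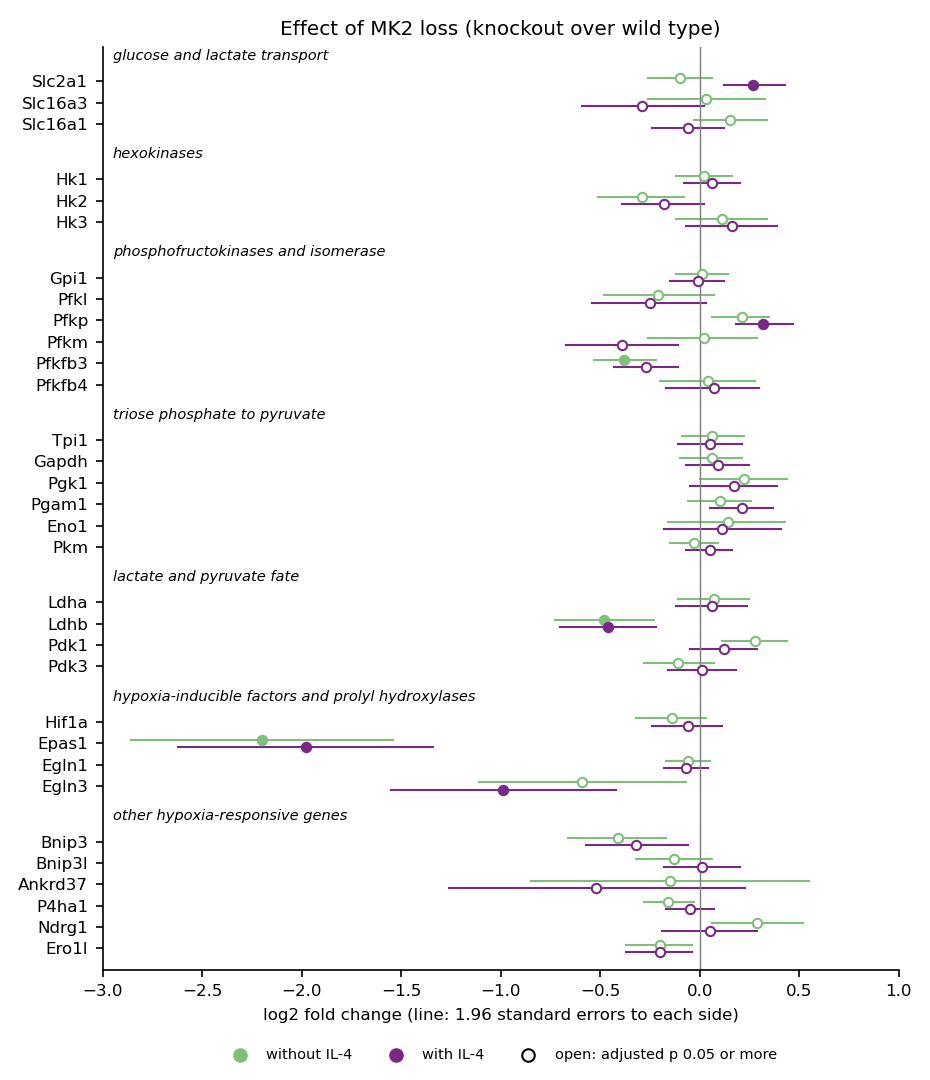
Log2 fold change with loss of MK2 (knockout minus wild type) of the 32 tested members by role, without IL-4 (green) and with IL-4 (purple). Lines are 95% intervals from the SE and filled points passed the adjusted threshold of 0.05; Epas1 lies near -2 in both states while the intervals of most members include 0.

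Epas1 (chromosome 17, 86753700 to 86833410 on mm10, plus strand), the gene of HIF-2alpha, showed the largest change of any member in any comparison. In replicates 1 to 6 it measured 55.8, 33.2, 33.7, 77.3, 59.5 and 61.1 CPM in wild-type M0 and 68.6, 46.2, 49.2, 76, 79 and 74.5 in wild-type M2, against 5.68, 7.8, 6.05, 18.1, 18.9 and 12.4 in knockout M0 and 8.81, 11.3, 9.17, 24.7, 26.6 and 20.6 in knockout M2. Every knockout library was below every wild-type library. It was 4.66-fold lower in mean CPM without IL-4 (-2.20 on the log2 scale, SE 0.34, adjusted p = 0.000136) and 3.89-fold lower with IL-4 (-1.98 on the log2 scale, SE 0.33, adjusted p = 0.000345). It passed in 14 of 14 and 13 of 13 alternative analyses and without each library in turn. Of the summed Hif1a and Epas1 GETMM level, Epas1 made up 26 ± 5.03% in wild-type M0 and 31.1 ± 4.21% in wild-type M2, and 7.85 ± 3.98% and 10.6 ± 4.05% in knockout M0 and M2. Hif1a itself did not pass (log2 fold change -0.14 without and -0.06 with IL-4).

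Markers of stromal cells and fibroblasts moved with Epas1. All 13 tested markers of the 15 listed were lower in knockout in both states, and their summed CPM was 11.2-fold lower without IL-4 and 9.54-fold lower with it, from 135 to 212 over the wild-type M0 libraries to 10.3 to 29.5 in knockout M0. Lum and Thy1 were under 1 CPM in every library, with 1 count of Lum over the wild-type M0 libraries and 0 over the knockout M0 libraries. Endothelium is another cell type known for Epas1. The summed CPM of 7 endothelial markers had group means from 7.56 to 9.96, most of it from Pecam1 and Kdr, the 2 that were tested and did not pass with MK2 loss. The other 5 were too low to test. Of these, Cdh5 was at 0.806 to 2.76 CPM in wild-type M0 and 0 to 0.722 in knockout M0, and Emcn at 0.422 to 1.04 and 0 to 0.4, so both were lower in every knockout M0 library. Tie1 had 16 and 2 counts over these groups, and Tek was under 1 CPM in every library. Within the knockout, Epas1 was 6.51 CPM on average in M0 replicates 1 to 3 and 16.4 in replicates 4 to 6, with stromal sums of 29.5, 14 and 10.3 and of 12.1, 14.4 and 11.8. In knockout M2 Epas1 was 9.76 and 23.9, with stromal sums of 24, 16.4 and 10.5 and of 15.5, 10.5 and 13.5. The stromal sums of the replicate sets thus overlapped, and replicate 1 was the highest in both states. Epas1 was also higher in replicates 4 to 6 of wild type, at 66.0 against 40.9 in M0. Within each set of replicates the fall with MK2 loss passed, at -2.61 (adjusted p = 8.58e-05) in replicates 1 to 3 alone and -1.98 (adjusted p = 1.81e-06) in replicates 4 to 6 alone without IL-4, and -2.48 and -1.68 with IL-4, both also past the threshold. How much of the Epas1 difference goes with the stromal or endothelial markers was not tested.

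**Figure D5:**
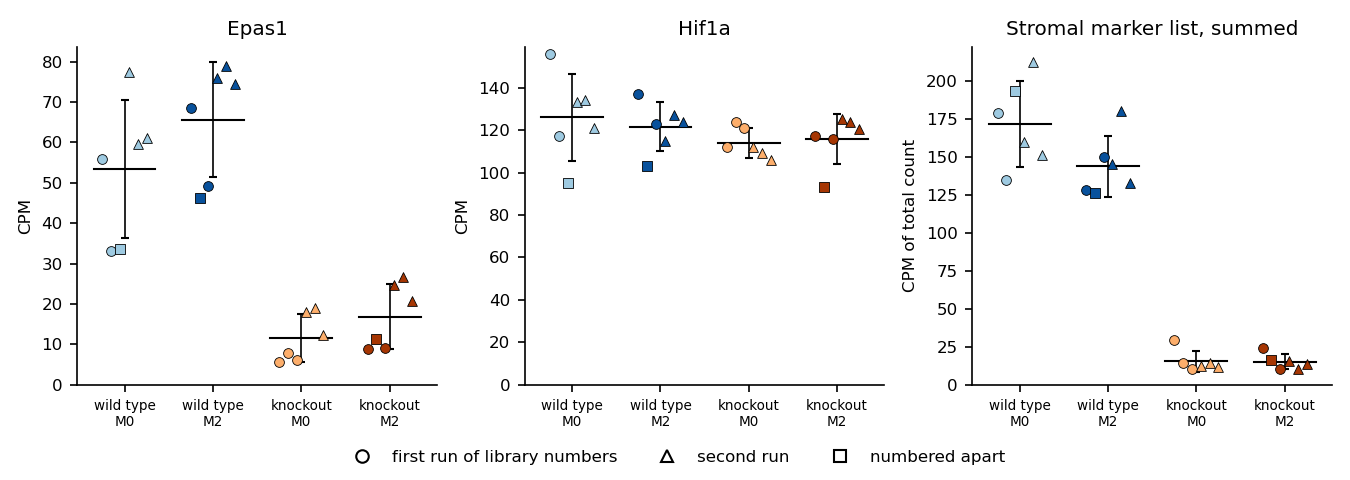
Epas1 CPM, Hif1a CPM and the summed CPM of the stromal and fibroblast markers in each library, by group, with marker shapes for the library-number run. Epas1 and the stromal sum are lower in all knockout libraries, and Hif1a ranges overlap. In knockout, Epas1 is higher in replicates 4 to 6 than in replicates 1 to 3, and the stromal sums of these sets overlap.

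Pfkfb3 was lower in unstimulated knockout macrophages, with lowest, median and highest CPM of 55, 59.3 and 70.7 against 68.8, 79.5 and 84.8 in wild type and little overlap (-0.38 on the log2 scale, SE 0.08, adjusted p = 0.00411). It passed in 14 of 14 alternative analyses and in both sets of replicates (-0.42 and -0.30). With IL-4 the change of -0.27 did not pass (adjusted p = 0.0594). It did without any one of wild-type M2 replicates 1 and 2, or knockout M2 replicate 4 (adjusted p from 0.0164 to 0.0316). Ldhb was lower in both states (-0.48 on the log2 scale, SE 0.13, adjusted p = 0.0238 without IL-4 and -0.46 on the log2 scale, SE 0.12, adjusted p = 0.0261 with it), but its ranges overlapped and the calls depended on single libraries. Without IL-4 the change was -0.51 (adjusted p = 0.0544) in replicates 1 to 3 alone and -0.43 (adjusted p = 0.117) in replicates 4 to 6 alone, and the call was lost without any one of wild-type M0 replicate 5, or knockout M0 replicates 1, 2 and 3 (adjusted p from 0.0578 to 0.0754). With IL-4 it was lost without any of wild-type M2 replicates 1, 2 and 3, or knockout M2 replicates 1, 2 and 3 (adjusted p from 0.0556 to 0.0804). With IL-4 the Ldhb change was -0.79 (adjusted p = 0.00373) in replicates 1 to 3 alone and -0.10 (adjusted p = 0.8) in replicates 4 to 6 alone.

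With IL-4, Pfkp was higher in knockout, at 130.4, 142 and 165 against 108, 112 and 124 CPM in wild type without overlap (0.32 on the log2 scale, SE 0.07, adjusted p = 0.00606). The change was 0.40 (adjusted p = 0.176) in replicates 1 to 3 alone and 0.25 (adjusted p = 0.00815) in replicates 4 to 6 alone. Slc2a1 was higher in every knockout M2 library than in every wild-type M2 library, at 36.4, 39.9 and 45.5 against 32.4, 33.1 and 33.5 CPM (0.27 on the log2 scale, SE 0.08, adjusted p = 0.0431). It was 0.30 (adjusted p = 0.413) in replicates 1 to 3 alone and 0.24 (adjusted p = 0.0551) in replicates 4 to 6 alone. The call was lost without any of wild-type M2 replicates 1, 2, 3, 4, 5 and 6, or knockout M2 replicates 1, 2, 4 and 5 (adjusted p from 0.0652 to 0.119). Egln3, at 0.224, 0.679 and 0.892 CPM in knockout M2 and 1.05, 1.22 and 1.67 in wild-type M2 without overlap, was lower (-0.99 on the log2 scale, SE 0.29, adjusted p = 0.0458). Its change was -0.73 (adjusted p = 0.549) in replicates 1 to 3 alone and -1.40 (adjusted p = 0.0754) in replicates 4 to 6 alone. The call was lost without any of wild-type M2 replicates 1, 3, 4, 5 and 6, or knockout M2 replicates 2, 3, 4, 5 and 6 (adjusted p from 0.0556 to 0.113). Egln3 had 260 counts over all libraries and DESeq2 gave an adjusted p of 0.0772. Without IL-4 neither Slc2a1, Pfkp nor Egln3 passed in the pooled fit (log2 fold change -0.10, 0.21 and -0.59). Pfkp passed as higher there without wild-type M0 replicate 3 (adjusted p = 0.038) and with the library run as a term. It also passed without the 3 libraries numbered apart, which include that replicate.

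The genotype comparison within replicates 4 to 6 called more members than the pooled one. Without IL-4 it called 8 members, all lower: Epas1, Bnip3 (-0.57), Ero1l (-0.43), Hk2 (-0.42), Pfkl (-0.32), Pfkfb3 (-0.30), P4ha1 (-0.30) and Hif1a (-0.24, log2 fold changes). Replicates 1 to 3 alone called Epas1 and Pfkfb3. There the changes of the others were Bnip3 -0.23, Ero1l 0.06, Hk2 -0.10, Pfkl -0.06, P4ha1 0.04 and Hif1a -0.01. With IL-4, replicates 4 to 6 called 1 member higher, Pfkp, and 8 lower, with 953 and 1059 of all genes called without and with IL-4. Without IL-4, Bnip3 did not pass in the pooled fit (-0.41 on the log2 scale, SE 0.13, adjusted p = 0.0603). It passed without knockout M0 replicate 2 (adjusted p = 0.0414), by DESeq2, and in a fit of the M0 groups only. The library run as a term and leaving out the 3 libraries numbered apart also called it lower. Bnip3 had no overlap between wild-type M0 (17.6 to 20.7 CPM) and knockout M0 (12.6 to 17.3 CPM). However, 40.4% of its 40-base stretches also occur in the gene model AC160336.1, which had 26547 counts against 3636 for Bnip3. With such copies added the log2 fold change was -0.30, adjusted p = 0.246.

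Between the first and the second library-number run, with the groups held fixed, 5 of 32 members differed, or 15.6% where 3.53% of all genes did (2% higher, 1.53% lower). Epas1 was higher in the second run by 0.84 on the log2 scale (adjusted p = 0.00253), as were Hk2 by 0.29 (adjusted p = 0.00471) and Pfkfb3 by 0.19 (adjusted p = 0.0138). Hk1 (-0.14) and Ndrg1 (-0.28) were lower. Every group has libraries in both runs. Across libraries, the 16 enzyme genes took 0.367% to 0.623% of all counts. The lowest share was in wild-type M0 replicate 1, and the 3 libraries numbered apart had the highest share of their groups. Within groups, Egln1 and P4ha1 varied least (median coefficient of variation 4.16% and 5.6%) and Epas1, Ankrd37 and Egln3 most (39.9%, 39.6% and 32.5%).

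Other genes of the pathway, from lists by function, were counted with IL-4 in the same way. Of all genes tested, 8.49% rose and 7.95% fell in wild type, and 12.2% rose and 11.4% fell in knockout. Of 19 other tested glycolysis genes, 1 rose and 1 fell in wild type: Tigar, a fructose bisphosphatase-like regulator (0.26 on the log2 scale, SE 0.08, adjusted p = 0.0303), and Slc2a3, the glucose transporter GLUT3 (-0.57 on the log2 scale, SE 0.16, adjusted p = 0.014). In knockout Slc2a6 rose (1.39 on the log2 scale, SE 0.27, adjusted p = 0.000399), and Slc2a3 and Slc16a7 fell (log2 fold change -0.59 and -0.26), so GLUT3 went down where GLUT1 went up. Of 8 pentose phosphate genes, Rpia (0.48 and 0.49) and Tkt (0.20 and 0.25) rose in both genotypes and none fell. Of 13 genes of the pyruvate dehydrogenase step, Pdp1, the phosphatase that activates the complex (0.45 and 0.61), and Mpc1, a subunit of the mitochondrial pyruvate carrier (0.34 and 0.44), rose in both, and none fell. Of 11 glycogen and hexosamine genes 0 passed in wild type, and in knockout 1 rose (Gfpt1) and 4 fell, among them Pygb (-0.37), Uap1 (-0.28) and Pygl (-0.22).

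Of 17 metabolic regulators 6 rose in wild type and 7 in knockout and none fell, where 8.49% and 12.2% of all genes tested rose. The largest rises were those of Prkaa2, an AMP kinase subunit (1.09 and 1.48), Mlxip, the glucose-responsive factor MondoA (0.48 and 0.54), Tsc1 (0.38 and 0.54) and Arrdc4 (0.36 and 0.50). For the lists that follow, 16.4% of all genes passed in either direction in wild type and 23.6% in knockout. Of 14 HIF pathway regulators 1 passed, Cited2, an inhibitor of HIF that is itself induced by hypoxia, which fell in both (-0.38 on the log2 scale, SE 0.07, adjusted p = 0.000321 in wild type, -0.62 in knockout). Of 29 other hypoxia-responsive genes 5 rose and 3 fell in wild type, and 4 rose and 3 fell in knockout. Bhlhe40 (1.61 and 2.08), Tfrc (0.89 and 1.10) and Ak4 (0.90 and 0.77) rose in both genotypes. Vegfa, the angiogenic factor (-0.43 and -0.41), and P4ha2 (-0.43 and -0.69) fell in both. Hypoxia genes outside the glycolytic steps went both ways.

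With loss of MK2 the other glycolysis, pentose phosphate and HIF regulator lists held 0 genes past the threshold in either state, where 4.52% and 4.59% of all genes passed. Of the 29 other hypoxia-responsive genes, 9 fell without IL-4 and 7 with it, and none rose. Among them were Lox (-3.28 without and -3.86 with IL-4) and Plod2 (-1.5 and -1.73), which encode collagen-modifying enzymes. Loxl2 is also on the stromal list. These genes fell beside the stromal markers given above, and the part of the stromal markers in their change was not tested. In the pyruvate dehydrogenase list Pdk4, a kinase of the same family as Pdk1 and Pdk3, fell (-2.93 on the log2 scale, SE 0.34, adjusted p = 9.2e-07 without IL-4, -2.14 with IL-4), as did Mpc1 (-0.37 and -0.28), while the members Pdk1 and Pdk3 did not pass (log2 fold change 0.28 and -0.11 without IL-4). Of the glycogen and hexosamine genes Gfpt1 was higher in knockout with IL-4 (0.39), and of the metabolic regulators Arrdc4 was lower without it (-0.30).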

How the data were processed

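RNA was sequenced as 40-base single-end reads from 24 macrophage libraries, 6 in each of 4 groups. Per the submitters' processing notes, CASAVA 2.8.0, RSEM 1.3.0, Bowtie2 2.3.4.1 and edgeR were used with mm10; whether the counting used strand is not given. The deposited expected counts, estimated counts per gene, had been rounded to whole numbers by the authors. The deposited GETMM signal was each count times a gene factor and a library factor, checked on 13047 genes. Counts were tested with edgeR 4.0.16 (R 4.3.3): TMM scaling, a count minimum of 10 (filterByExpr, 12797 of 54429 genes holding 99.8% of counts), 4 groups in 1 robust quasi-likelihood fit without covariates, and Benjamini-Hochberg adjustment over all genes tested at 0.05. SE is the log2 fold change divided by the root of F. CPM in the text is TMM-scaled, whereas sums of markers and shares of counts use library totals, from 7893809 to 13492507.

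The members and all lists were chosen with earlier results of these data known. Members were all reported; values by library are given for Hif1a, Epas1, Slc2a1, Hk2, Gapdh, Ldha, Pfkfb3, Egln3 and up to 8 called members per comparison with the largest change, and from each pathway list up to 4 called genes with a mean log2 CPM of at least 0. A listed gene that meets this rule is not reported here. Alternatives were other normalizations, filters and tools (DESeq2 1.42.0, and limma 3.58.1 on log2 GETMM with a pseudocount of 1 or 0.1), left-out libraries, replicates 1 to 3 or 4 to 6 alone, library-run and replicate terms, and added copies. The edgeR script was tested on simulated data. No library pair looked like a duplicate: chi-square per degree of freedom within groups was never under 2.62.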

Additional observations from a re-analysis of the deposited data

Results flagged for a closer look

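In 17 of 144 combinations of gene (or marker sum) and group, 1 of the 6 libraries stood apart, its gap to the next library passing Dixon's 95% critical value for the group's range; chance alone flags about 1 in 20. Libraries numbered apart account for several. Wild-type M2 replicate 2 stood apart high in Hk3 at 574 CPM, Gpi1 at 325, Pkm at 1287 and Mapkapk2 at 139, and low in Bnip3l at 244 and Ero1l at 59.4. Knockout M2 replicate 2 was high in Hk3 at 652 CPM and low in Hif1a at 93.2.

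Knockout M0 replicate 2, which is not numbered apart, was low in Hk3 at 274 CPM and Ldha at 383, and high in Gpi1 at 293. Egln1 was high in wild-type M2 replicate 6 at 41.6 CPM and in knockout M0 replicate 1 at 42.9, against tight groups, and Egln3 was high in wild-type M2 replicate 1 at 1.67 CPM. The stromal marker sum was high in knockout M0 replicate 1 at 29.5 CPM. Aldoa, with almost no counts, reached 0.23 CPM in wild-type M0 replicate 6 and 0.522 in knockout M2 replicate 4.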

How the results depend on the processing

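Over all members, comparisons and alternative settings, 4395 values stayed on their side of the threshold, 133 lost a call, 112 gained one and 0 of those called reversed. Values that were not called could change sign, as Bnip3 did with IL-4 in knockout (-0.19, and 0.07 with copies added). A count minimum of 10 and library totals of 7893809 to 13492507 counts leave Egln3 and Ankrd37 with wide errors, and Aldoa untested. In each genotype an M0 and an M2 library share a culture number in the labels, which do not say what it marks. Deviations of such libraries correlated at -0.04 to 0.35, over 0.1 in 8 of 12 pairs, and 7 of 12 libraries matched their own number best, a hint of pairing from the data and not from the design. A replicate block by culture number raised the genes called with IL-4 from 2103 to 2622 in wild type and from 3024 to 3446 in knockout, and 2 genes differed in their response. With this block Epas1 passed with IL-4 in wild type (0.33, adjusted p = 0.00181) and in knockout (0.56, adjusted p = 5.05e-05), as did Bnip3l, Pfkfb4, Pfkl and Pgk1 in wild type and Pfkfb3 and Slc16a3 in knockout. With a replicate block by replicate number, 1 member was higher with MK2 loss without IL-4 and 1 with it. Of all genes, 184 and 231 were higher there. With this block Epas1 with IL-4 passed in knockout (adjusted p = 0.0301). Counts below give genes or members past the threshold.

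For IL-4 in wild type, members lower were 4 with the library run as a term, where 1480 of all 12797 genes were lower. Replicates 1 to 3 alone gave 860 genes, 527 of them higher, with 4 members higher. For IL-4 in knockout, members lower were 1 without a count filter, where 1049 of 32242 genes were lower. Members lower were 7 with the library-run term, without the 3 libraries numbered apart or in replicates 4 to 6. There 1757, 1635 and 1369 of 12797 genes were lower, against 1461 in the pooled fit. Replicates 1 to 3 gave 1469 genes, 4 members higher and 1 lower. For MK2 loss without IL-4, members higher were 1 by DESeq2, 1 in a fit of those groups only, 2 with the library-run term (with 7 lower and 1044 genes), 2 without the libraries numbered apart (5 lower) and 1 when wild-type M0 replicate 1 was left out as well; replicates 4 to 6 gave 953 genes and 8 members lower. For MK2 loss with IL-4, members higher and lower were 1 and 1 without a filter, with 140 and 396 of 32242 genes. In a fit of those groups only 1 member was lower, with 359 of all genes lower. Members higher were 1 without the libraries numbered apart and by limma on GETMM with either pseudocount. Of all genes, 226, 186 (pseudocount 1) and 170 (pseudocount 0.1) were higher there. The library-run term gave 919 genes, replicates 1 to 3 gave 309 and 0 members higher, and replicates 4 to 6 gave 1059, with 1 member higher and 8 lower. The difference between responses had 1 gene by DESeq2, 21 in replicates 4 to 6 and 3 by limma with a pseudocount of 1. Between runs, 1 member was lower without a filter, with 201 of 32242 genes lower. The cause of these shifts was not tested. Leaving out wild-type M0 replicate 1 beside the libraries numbered apart, and adding copies, were chosen after seeing the data.

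Leaving out 1 library at a time gave 1753 to 2273 genes for IL-4 in wild type (7 to 9 members higher, 2 to 3 lower), 2650 to 2974 in knockout (9 to 12 and 1 to 6), 435 to 617 for MK2 loss without IL-4 (0 to 1 and 2 to 4), 479 to 647 with IL-4 (1 to 2 and 1 to 4), and 0 for the difference between responses. Calls gained this way and not given above were Egln1 with IL-4 in knockout without knockout M2 replicate 2 (adjusted p = 0.0447), Pdk1 and P4ha1 with MK2 loss without IL-4, without wild-type M0 replicates 5 and 6 (adjusted p from 0.0443 to 0.0445) and wild-type M0 replicate 2 (adjusted p = 0.0457), and Ero1l and Pfkm with MK2 loss with IL-4, without wild-type M2 replicate 2 (adjusted p = 0.0393) and knockout M2 replicate 3 (adjusted p = 0.037). Without a count filter, genes higher and lower were 896 and 610 for IL-4 in wild type, 1339 and 1049 in knockout, and 111 and 451, and 140 and 396, for MK2 loss without and with IL-4.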
